A study of Mus musculus with 2 samples.

Results

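The distal parts of mouse chromosomes 4 and 5 held 317 peaks of the WD-repeat protein Pwp1 in mouse embryonic stem cells, 5.62% of the 5639 peaks in the list. They were chosen by position: every peak whose centre lay at or beyond 117,000,000 on chromosome 4 or 103,000,000 on chromosome 5 of the build mm9. Chromosome 4 contributed 157 of these peaks and chromosome 5 contributed 160. Both positions had been placed where the number of peaks per Mb changed in this same list, so the density of peaks is given below as a description with no test. The 281 peaks before these positions on the same chromosomes, 144 on chromosome 4 and 137 on chromosome 5, are the comparison.

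The study mapped where Pwp1 sits on the genome by chromatin immunoprecipitation and sequencing. It sequenced 1 library immunoprecipitated with an anti-Pwp1 antibody from Santa Cruz and 1 input library without antibody. Both came from E14.1 cells, an established mouse embryonic stem cell line, kept on gelatin with LIF (1000 units per ml) and 15% serum, and the labels name no mutation or drug. Only the peak list of the Pwp1 library was analysed here, and it gives the chromosome, start and end of each peak with no height or read count. There is no replicate, the depth is unknown, and the intervals below, at 95%, cover counting error only.

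Pwp1 belongs to the WD-repeat proteins, whose blade-like repeats form a platform for other proteins, and it is known as a nuclear and nucleolar protein linked to ribosomal RNA synthesis. LIF is the cytokine that holds such cells in the undifferentiated state, and it signals through Stat3, a transcription factor that the title of the series links to Pwp1. Mouse chromosomes carry the centromere at their first end, so the distal parts described here run to the opposite telomere. The distal part of mouse chromosome 4 is known to be rich in genes. Genes, promoters and base sequence under the peaks were not analysed here, because no genome or annotation of mm9 was used.

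On chromosome 4 the distal part spanned 38.4 Mb up to its last peak and held 4.09 peaks per Mb (95% interval 3.47 to 4.78). The 113.8 Mb before it, counted from the first peak, held 1.27 peaks per Mb (1.07 to 1.49). On chromosome 5 the distal 49.2 Mb held 3.25 peaks per Mb (2.77 to 3.80), and the 99.4 Mb before it held 1.38 (1.16 to 1.63). The distal part of chromosome 4 thus carried 52.2% of the chromosome's peaks on 25.2% of the span, and that of chromosome 5 carried 53.9% on 33.1%. The ratio of the densities was 3.23 (2.56 to 4.08) on chromosome 4, 2.36 (1.87 to 2.99) on chromosome 5 and 2.75 (2.33 to 3.24) over both. When only the 1 Mb bins that hold a peak were counted, the ratio over both fell to 1.54. Distal chromosome 6, counted from 108,000,000, held 5.14 peaks per Mb, and distal chromosome 14, counted from 69,000,000, held 6.74.

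The bases covered followed the same order. Peaks covered 650.4 bp per Mb in distal chromosome 4 and 190.3 bp per Mb before it. On chromosome 5 they covered 510.4 bp per Mb in the distal part and 210.8 bp per Mb before it. The 317 distal peaks together covered 50.1 kb.

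Windows of 5 Mb counted from the boundary show how even the distal parts were. The 7 whole windows of distal chromosome 4 held 13, 23, 17, 17, 24, 18 and 27 peaks in order towards the telomere, and a last stretch of 3.40 Mb held 18 more. The 22 windows before the boundary had a median of 5 peaks and ranged from 0 to 26. The groups of windows overlapped. The 1 earlier window as rich as the distal ones lay at 42,000,001 to 47,000,000 with 26 peaks, and 1 other, at 52,000,001 to 57,000,000, reached the lowest distal count of 13.

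On chromosome 5 the 9 whole distal windows held 20, 20, 13, 23, 22, 9, 16, 12 and 10 peaks in order, and the last 4.18 Mb held 15. The 19 windows before the boundary had a median of 6 peaks and ranged from 0 to 21, the highest lying at 63,000,001 to 68,000,000. Of these 19 windows, 4 reached the lowest distal count of 9. The window just before the boundary held 6 peaks on chromosome 4 and 8 on chromosome 5.

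**Figure D1:**
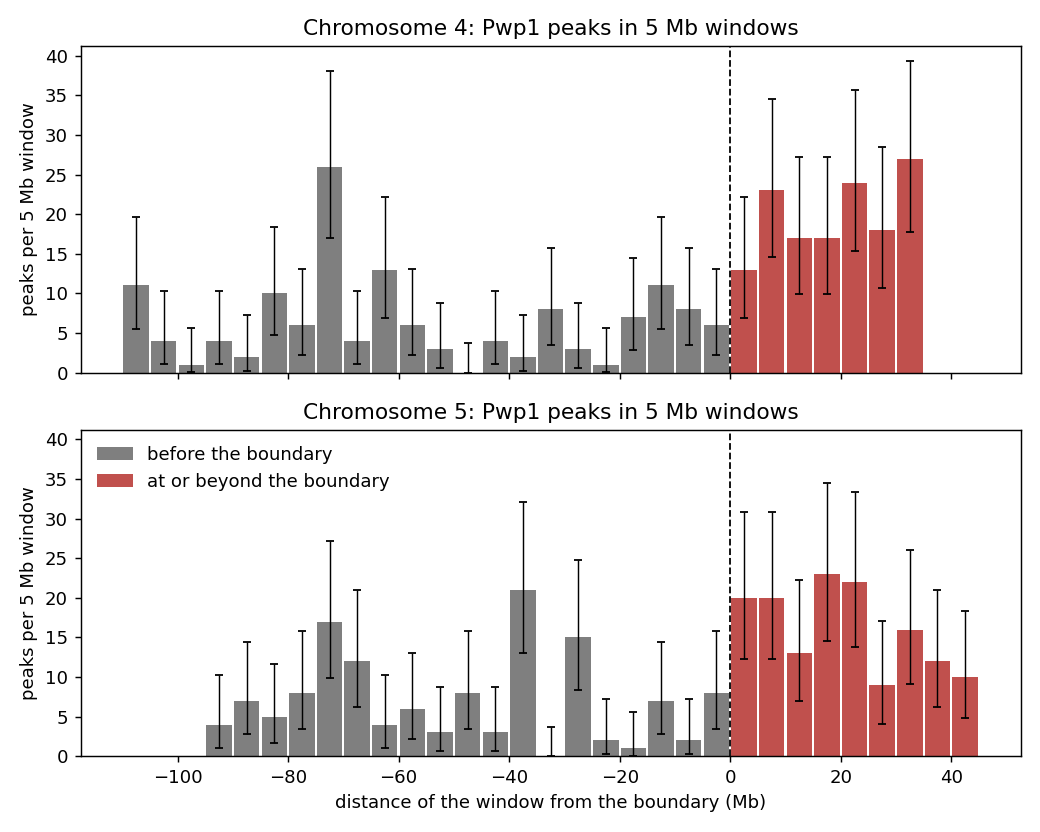
Number of Pwp1 peaks (vertical axis) in whole 5 Mb windows of chromosomes 4 (top) and 5 (bottom) against the distance of the window's start from the boundary in Mb (bars are centred in their window, error bars are exact 95% Poisson intervals, and the dashed line is the boundary). The distal windows hold 13 to 27 peaks on chromosome 4 and 9 to 23 on chromosome 5, and single earlier windows reach 26 and 21.

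The distal parts of both chromosomes differed in how their peaks were laid out. Each was divided at its midpoint into an inner and an outer stretch of equal length, a division made after the windows had been seen and not tested. On chromosome 4 the inner 19.2 Mb held 70 peaks and the outer stretch 87, or 3.65 (2.84 to 4.61) and 4.53 (3.63 to 5.59) peaks per Mb, with overlapping intervals. On chromosome 5 the inner 24.6 Mb held 98 peaks and the outer stretch 62, or 3.99 (3.24 to 4.86) and 2.52 (1.93 to 3.23) peaks per Mb. The inner stretch of chromosome 5 was therefore the denser one, and the outer stretch still lay above the 1.38 peaks per Mb before the boundary.

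Few stretches of the distal parts lacked peaks. Of the 39 bins of 1 Mb on distal chromosome 4, 1 was empty, at 136,000,001 to 137,000,000, and of the 50 on distal chromosome 5, 1 was empty, at 131,000,001 to 132,000,000. With both boundaries 5 Mb nearer the start, the share of empty bins rose from 2.56% to 9.09% on chromosome 4 and from 2.25% to 5.05% over both. Before the boundaries 55 of 114 bins (48.2%) on chromosome 4 and 40 of 100 on chromosome 5 were empty, in runs of up to 10 Mb and 6 Mb. A bin held 5 or more peaks in 15 of 39 cases on distal chromosome 4 and in 12 of 50 on distal chromosome 5, against 7 of 114 and 4 of 100 before. The variance of the counts over their mean, which is 1 for points placed independently at an even rate, was 1.77 on distal chromosome 4 and 1.01 on distal chromosome 5. It was 2.48 and 1.85 before the boundaries, where peaks were fewer and, on each chromosome, less evenly spread. Distal chromosome 4, at 1.77, was close to the earlier part of chromosome 5. The filling of bins follows from the density that placed the boundaries, so these values are a description. The same shares over the whole list are not given.

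The richest bins of distal chromosome 4 lay at 125,000,001 to 126,000,000 and at 146,000,001 to 147,000,000, with 10 peaks each, and at 150,000,001 to 151,000,000, with 9. In the first of these the widths ran from 128 to 295 bp with a median of 163 bp. Of the 8 distal peaks of 250 bp or wider on both chromosomes, 3 lay in it, at 125,368,669 to 125,368,942, 125,841,022 to 125,841,316 and 125,933,306 to 125,933,575, with widths of 274, 295 and 270 bp. The bin had been named for its count, and its widths were looked at afterwards.

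The bin at 146,000,001 to 147,000,000 held both extremes of width on distal chromosome 4. Its first peak, at 146,022,856 to 146,023,179, was the widest of all 317 at 324 bp. The peak at 146,611,182 to 146,611,258 was the narrowest at 77 bp. Of the 11 distal peaks narrower than 100 bp, 4 lay in this bin, with widths of 77, 84, 87 and 99 bp, and its median width was 113.5 bp. The gene and repeat content of this stretch was not analysed here.

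Distal chromosome 5 had no comparably rich bin. The highest count was 7, at 125,000,001 to 126,000,000, and 8 further bins shared the next count of 6. They differed in width. In the bin at 110,000,001 to 111,000,000 the 6 peaks were 114 to 125 bp wide, while in the bin at 148,000,001 to 149,000,000 the 6 peaks were 133 to 215 bp wide with a median of 175.5 bp.

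The spacing between peaks followed the density. The gap from one peak centre to the next had a median of 160 kb (quartiles 54.7 and 325 kb) on distal chromosome 4 and of 204 kb (88.7 and 403 kb) on distal chromosome 5. Before the boundaries the medians were 292 and 338 kb. The widest distal gap of chromosome 4 was 1206 kb, between the peaks at 150,702,405 to 150,702,584 (180 bp) and 151,908,305 to 151,908,492 (188 bp). On chromosome 5 it was 1501 kb, between the peaks at 116,356,187 to 116,356,402 (216 bp) and 117,856,887 to 117,857,100 (214 bp). Gaps over 1 Mb made up 6 of 156 gaps and 8 of 159 in the distal parts, against 33 of 143 and 28 of 136 before, where the widest measured 11044 and 6692 kb.

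**Figure D2:**
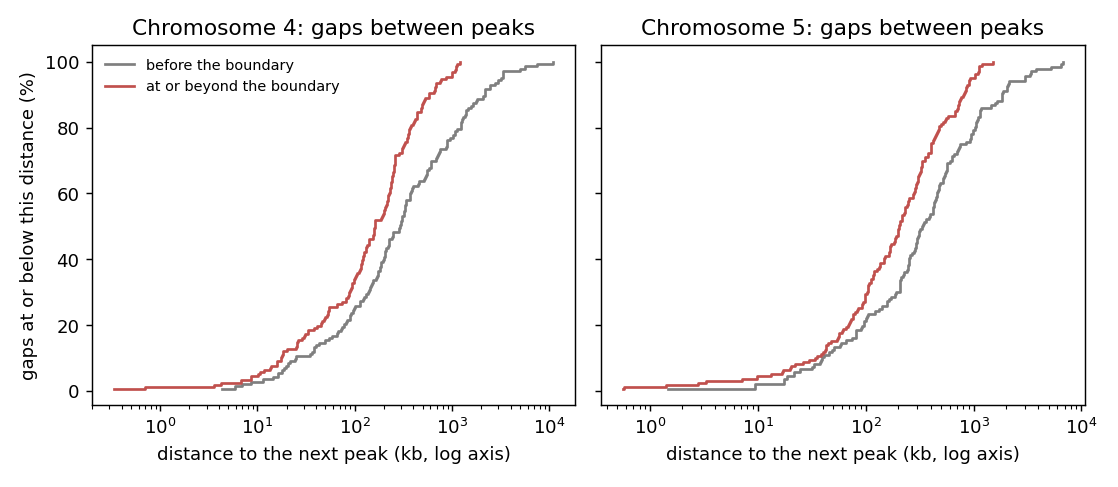
Share of gaps between neighbouring peak centres (vertical axis, percent) at or below a distance (horizontal axis, kb, log axis) on chromosome 4 (left) and chromosome 5 (right), with the distal part in red and the part before the boundary in grey. Distal gaps have medians of 160 and 204 kb and end at 1206 and 1501 kb, while gaps before the boundary have medians of 292 and 338 kb and reach 11044 and 6692 kb.

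The distance from a distal peak to its nearest neighbour on either side had a median of 88.1 kb (95% interval 53.3 to 116) on chromosome 4 and 111 kb (97.5 to 136) on chromosome 5. Over all 5639 peaks this median was 94.0 kb. A neighbour within 10 kb was present for 14 of 157 distal peaks of chromosome 4 (8.92%) and for 13 of 160 of chromosome 5 (8.12%), against 5.56% and 4.38% before the boundaries and 7.59% over the whole list. This share rises with density by itself. The 27 distal peaks with such a neighbour were 142 ± 44.7 bp wide and the other 290 were 159 ± 39.6 bp (mean ± SD over peaks), a difference that was not tested.

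The closest distal pair of chromosome 4 lay at 155,182,896 to 155,183,017 (122 bp) and 155,183,220 to 155,183,365 (146 bp), with centres 336 bp apart and 202 bp between the peaks. On chromosome 5 the closest pair lay at 103,887,653 to 103,887,819 (167 bp) and 103,888,207 to 103,888,396 (190 bp), with centres 565.5 bp apart and 387 bp between them. Each chromosome had 2 distal pairs with centres within 1 kb. A neighbour within 1 kb was present for 8 of the 317 distal peaks (2.52%), against 0.99% of the whole list. The share was 0.94% in distal chromosome 6 and 3.81% in distal chromosome 14. These shares depend on density and were not tested. Before the boundaries the closest centres were 4.34 kb apart on chromosome 4 and 1.47 kb on chromosome 5.

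When peaks were chained wherever the next centre lay within 50 kb, 60 of the 157 distal peaks of chromosome 4 (38.2%) fell into 25 groups of 2 to 4 peaks. On chromosome 5, 41 of 160 (25.6%) fell into 17 groups of 2 to 5. Before the boundaries the share in such groups was 29.2% on chromosome 4, which lay above that of distal chromosome 5, and 21.9% on chromosome 5. Such a share rises with density by itself, and density was used to place the boundaries. The share over the whole list is not given, so these values cannot show whether the grouping is a trait of the distal parts. The 2 largest groups, both on chromosome 5, were singled out after their values were seen and differed in width. The first, from 110,738,362 to 110,788,843, held 5 peaks of 122, 121, 118, 122 and 114 bp, all narrower than the commonest width. Its last 3 peaks lay within 3 kb of each other. The second, from 120,973,128 to 121,071,233, held 5 peaks of 204, 178, 167, 258 and 158 bp, and 3 of these were wider than the commonest width.

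The rule that chose these peaks did not use width, but the parts were chosen with earlier results of these data known, widths among them. The commonest width in the whole list was 167 bp, shared by 1719 peaks (30.5%), and peaks are called wide below if they exceed it and narrow if they fall short of it. Of the 317 distal peaks, 90 (28.4%, exact Clopper-Pearson interval 23.5 to 33.7) were wide, against 32.0% of the whole list. A further 80 (25.2%) were 167 bp wide exactly, and 147 (46.4%, 40.8 to 52.0) were narrow, against 37.6% of the whole list. Before the boundaries 61 of 281 peaks (21.7%) were wide and 145 (51.6%) narrow, so on these chromosomes narrow peaks took a larger share than in the list on both sides of the boundary. The list contains these peaks, and the difference from it was not tested.

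Wide peaks took a somewhat larger share of the distal than of the earlier peaks on both chromosomes, by differences that did not pass the test. On chromosome 4, 48 of 157 distal peaks (30.6%) and 35 of 144 earlier ones (24.3%) were wide, a difference of 6.27 percentage points (95% interval -3.86 to 16.1). On chromosome 5 the counts were 42 of 160 (26.2%) and 26 of 137 (19.0%), a difference of 7.27 points (-2.37 to 16.5). Over both chromosomes the difference was 6.68 points (-0.30 to 13.5). None of these 3 passed (Fisher's exact test, 2-sided, Benjamini-Hochberg adjusted p = 0.247, 0.247 and 0.219). The share of narrow peaks differed by -8.31 points on chromosome 4, -2.03 on chromosome 5 and -5.23 (-13.1 to 2.78) over both, and did not pass either (Fisher's exact test, adjusted p = 0.329, 0.816 and 0.329). The intervals leave room for a higher share of wide peaks in the distal parts of up to 16.1 points on chromosome 4 and 16.5 points on chromosome 5. Against the nearest 40 Mb before the boundaries only, the difference over both was 10.7 points for wide peaks (1.01 to 18.8; Fisher's exact test, adjusted p = 0.111) and -11.5 points for narrow peaks (-22.1 to -0.32; adjusted p = 0.158 by the same exact test).

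These tests compare parts of 1 peak list, chosen with widths known, and treat peaks as independent. Widths did vary along the distal parts. In the 5 Mb windows the share of wide peaks ran from 16.7% to 44.4% on distal chromosome 4, with its highest value in the last whole window, where 12 of 27 peaks were wide. On distal chromosome 5 it ran from 5.0%, 1 of 20 peaks in the window at 108,000,001 to 113,000,000, to 66.7%, 6 of 9 peaks in the window at 128,000,001 to 133,000,000. The inner stretch of distal chromosome 5, which was the denser one, had 20 of 98 wide peaks (20.4%, 12.9 to 29.7) and the outer stretch 22 of 62 (35.5%, 23.7 to 48.7). On distal chromosome 4 the inner and outer stretches were close, at 31.4% and 29.9%. The densest whole windows, with 27 peaks on chromosome 4 and 23 on chromosome 5, had shares of 44.4% and 39.1%. None of these differences was tested.

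**Figure D3:**
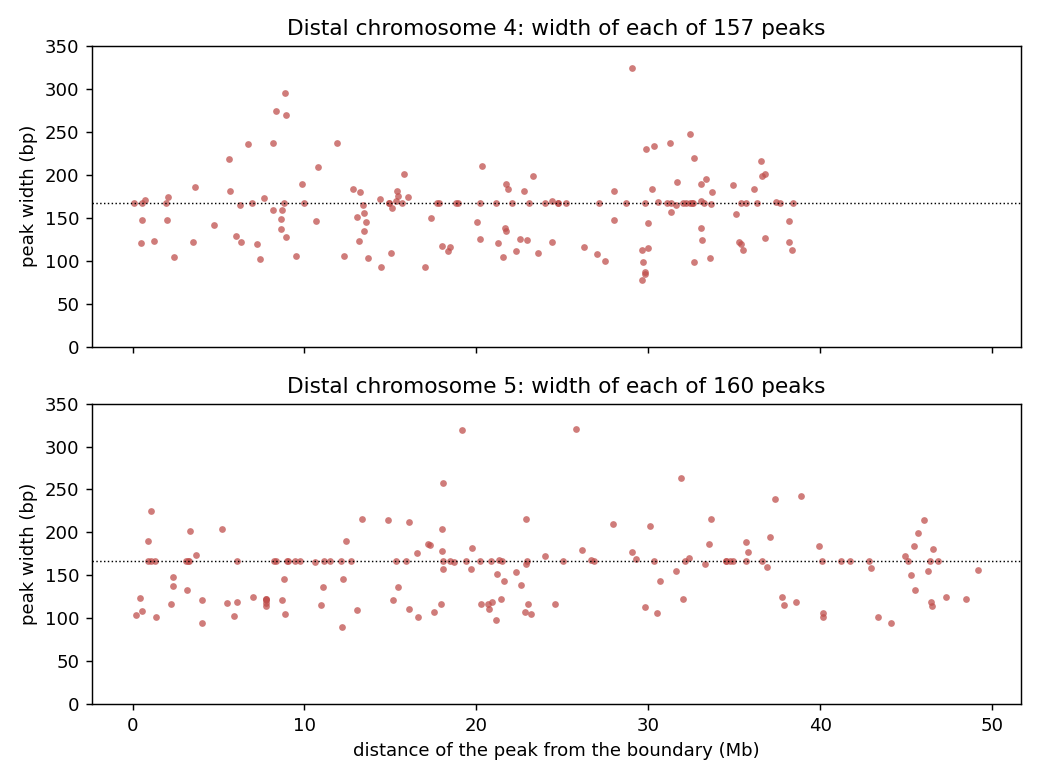
Width in bp (vertical axis) of each of the 157 distal peaks of chromosome 4 (top) and the 160 of chromosome 5 (bottom) against its distance from the boundary in Mb, with 1 point per peak and a dotted line at 167 bp, the commonest width. Most points lie between 100 and 210 bp, 80 lie on the line, and the 8 peaks of 250 bp or wider are scattered except for 3 that lie within 1 Mb of each other on chromosome 4.

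Distal peaks had a median of 167 bp on both chromosomes, with quartiles of 124 and 174 bp on chromosome 4 and of 121 and 168 bp on chromosome 5. Before the boundaries the median was 155 bp on chromosome 4 and 167 bp on chromosome 5. The means were 159 ± 41.1 bp (SD over 157 peaks) and 157 ± 39.5 bp (160 peaks) in the distal parts, and 150 ± 38.2 and 153 ± 35.4 bp before them. The SD describes single peaks, and the means were not tested. A second, lower crowd of widths lay between 100 and 125 bp and held 81 of the 317 distal peaks (25.6%), 77 of the 281 earlier ones (27.4%) and 19.4% of the whole list.

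**Figure D4:**
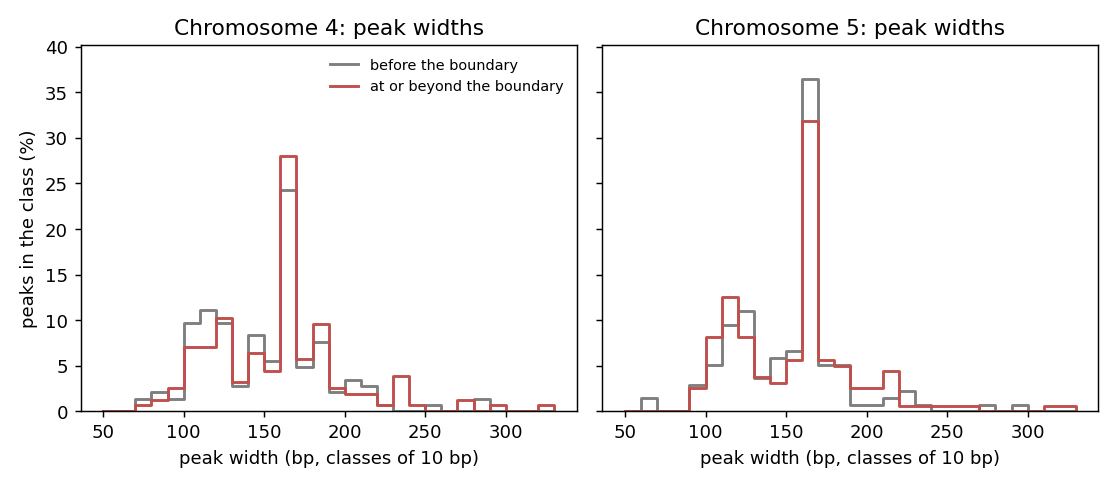
Percent of peaks (vertical axis) in classes of 10 bp of peak width (horizontal axis, bp) on chromosome 4 (left) and chromosome 5 (right), with the distal part in red and the part before the boundary in grey. On both chromosomes both parts have their highest class at 160 to 169 bp, which contains the commonest width of 167 bp, and a second rise between 100 and 129 bp.

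Very wide peaks took a smaller share than in the whole list on both sides of the boundaries, and these differences were not tested. Peaks narrower than 100 bp made up 11 of 317 distal peaks (3.47%), against 3.25% of the whole list and 4.63% of the 281 earlier peaks. On distal chromosome 5 the widest lay at 128,793,015 to 128,793,334, 122,140,712 to 122,141,030 and 134,893,724 to 134,893,986, with widths of 320, 319 and 263 bp. Its narrowest, at 115,176,534 to 115,176,623, was 90 bp wide. Widths of 250 bp or more were reached by 4 distal peaks on each chromosome, or 2.52% of the 317, against 5.99% of the whole list. Before the boundaries 5 of 281 peaks (1.78%) reached this width, so the low share is not particular to the distal parts. Distal chromosomes 4 and 5 did not differ detectably from each other in the share of wide peaks, by 4.32 points (-5.58 to 14.1; Fisher's exact test, 2-sided, p = 0.455).

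The distal parts of chromosomes 6 and 14, which also held more peaks than the sequence before them, had a higher share of wide peaks than distal chromosomes 4 and 5. Wide peaks made up 91 of 213 (42.7%) in distal chromosome 6 and 164 of 315 (52.1%) in distal chromosome 14. Against these, the share of 28.4% in distal chromosomes 4 and 5 differed by -14.3 points (-22.5 to -6.04) and by -23.7 points (-30.9 to -16.1). Both differences passed (Fisher's exact test, 2-sided, adjusted over the 2 comparisons, p = 0.000764 and 3.16e-09). Narrow peaks made up 23.9% and 13.0% there, against 46.4% in distal chromosomes 4 and 5. Distal chromosomes 4 and 5 were also the least dense of these parts, at 3.62 peaks per Mb (3.23 to 4.04). These parts had been chosen with their densities and widths known, so the tests are no independent evidence.

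**Figure D5:**
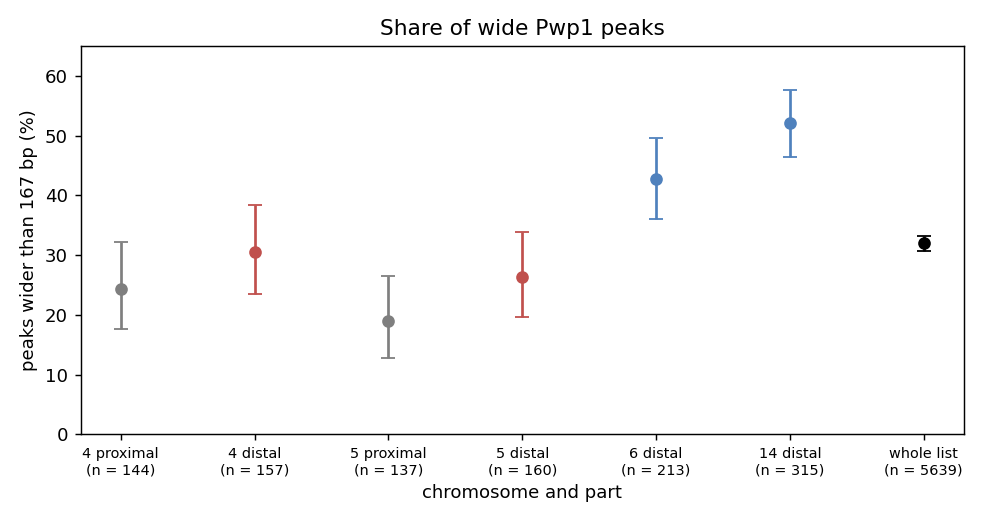
Share of peaks wider than 167 bp (vertical axis, percent) in each part, with exact 95% Clopper-Pearson intervals as error bars and the number of peaks under each name, where proximal means before the boundary. Distal chromosomes 4 and 5, at 30.6% and 26.2%, have intervals that overlap those of the peaks before them. Distal chromosomes 6 and 14 lie higher at 42.7% and 52.1%. The interval of distal chromosome 6 (36.0 to 49.7) still overlaps that of distal chromosome 4 (23.5 to 38.4).

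The boundaries fell between peaks. Wide gaps were common before them, with upper quartiles of 892 kb on chromosome 4 and 774 kb on chromosome 5. On chromosome 4 the first distal peak lay at 117,108,435 to 117,108,601 (167 bp), and the last peak before it at 115,996,865 to 115,996,995 (131 bp), 1003 kb short of the boundary. On chromosome 5 the first distal peak lay at 103,206,725 to 103,206,828 (104 bp), and the last before it at 102,230,956 to 102,231,135 (180 bp), 769 kb short of the boundary. The peaks nearest the telomere lay at 155,400,950 to 155,401,116 on chromosome 4 (167 bp) and at 152,176,585 to 152,176,740 on chromosome 5 (156 bp).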

How the data were processed

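The authors deposited 1 peak list for the Pwp1 library, in mm9 coordinates per the labels, with 3 columns, no header and no value per peak. HOMER 4.3, Bowtie 0.12.7 and CASAVA 1.4 appear in the submitters' processing notes. Which step each served, the peak threshold and any use of the input are not given in the sources used. Starts were read as counted from 0 and are printed counted from 1. No line was dropped, and 0 neighbouring peaks overlapped.

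Density was taken from the boundary to the last peak and from the first peak to the boundary. Tests and intervals used scipy 1.17.1 and statsmodels 0.14.6 under Python 3.11.15, with pandas 2.3.3 and numpy 2.4.6 (Newcombe intervals for differences in share, Poisson and conditional binomial intervals for densities and their ratio). Fisher's exact test and the interval of the density ratio were tried on simulated counts drawn independently. The other intervals were not tried, and clustered peaks were not simulated. Figures were drawn with matplotlib 3.10.9. The members, boundaries and comparisons were chosen with earlier results of these data known. Peaks are named by rule: the 3 widest, the narrowest, the first and last, those around the boundary, the closest pair, the widest gap and the 3 richest bins per chromosome. Others were named after their values were seen. Alternatives moved the boundary, merged peaks, narrowed the comparison and redefined wide peaks.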

Additional observations from a re-analysis of the deposited data

How the results depend on the processing

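Over 18 results, 78 recomputed values were made, of which 69 kept the direction and the call, or stayed within the interval of the reported value, and 0 reversed direction. The other 9 moved. Per 1 Mb bin that holds a peak, the ratio of distal to earlier density was 1.69 on chromosome 4, 1.43 on chromosome 5 and 1.54 over both, since this leaves out the empty bins, which lay mostly before the boundaries. Counting only wide peaks, with the spans taken from the first and to the last wide peak, it was 4.15, 3.38 and 3.70. With 2 Mb bins the share of empty distal bins was 0% on chromosome 4, on chromosome 5 and over both, and 0 of 45 bins allows up to 7.87% by the exact interval. No width alternative changed a call at the adjusted threshold, but sizes moved. Against the nearest 40 Mb only, the wide difference over both rose from 6.68 to 10.7 points, the narrow one went from -5.23 to -11.5, and on chromosome 4 and chromosome 5 the narrow one reached -12.8 and -10.3. The interval of the wide difference over both excluded 0 in that setting, with peaks within 1 kb merged (7.68 points, 0.64 to 14.6) and with the boundaries 5 Mb nearer the end (7.57, 0.59 to 14.5), where the adjusted p of Fisher's exact test was 0.111, 0.116 and 0.114. With wide taken as 200 bp or more it was 3.53 points, and with the boundaries 5 Mb nearer the start it was 4.09 on chromosome 4. Without the commonest width the differences from distal chromosomes 6 and 14 were -26.1 and -42.0 points. The planned values of base composition, promoter share and a stricter peak threshold were not run, because no genome or annotation of mm9 and no value per peak was used. No paired analysis was possible because only 1 library has peaks. Sequencing depth is not known from the list, so its limits were not examined.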
